A study of Mus musculus with 7 samples.

Results

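The genes examined were 10 chosen by name from the protein folding machinery of the endoplasmic reticulum (ER) and from the unfolded protein response (UPR). They were Hspa5, Hsp90b1, Calr, Canx, Pdia3, Pdia4, Herpud1, Xbp1, Atf4 and Ddit3. The probe annotation listed 9 of them among 19505 named genes, each with the probe set of highest mean over the arrays, and all 9 were among the 10004 genes bright enough to be tested. Pdia4 was not listed there and was not analysed here. Microglia, the resident macrophages of the brain, were sorted as viable cells bearing CD45 and CD11b, and their RNA was read on 1 expression array per sample. All mice carried the 5xFAD transgenes, mutant human amyloid precursor protein and presenilin genes driven by a neuronal promoter, on the C57BL/6 strain. The 3 control samples, called wildtype here, had the genotype 5xFAD;B2m+/+ and the 4 knockout samples 5xFAD;B2m-/-. The labels state no age, sex or litter, nor whether each sample came from 1 mouse, and p-values here therefore cover only the variation among the 7 samples, part of which may be technical.

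Beta-2-microglobulin, the product of B2m, is the light chain that MHC class I heavy chains need in order to fold and leave the ER. Heavy chains are bound there by calnexin, calreticulin and the disulfide isomerase ERp57, the products of Canx, Calr and Pdia3. When unfolded proteins accumulate in the ER, the sensors IRE1, PERK and ATF6 are activated. ATF6 and the spliced form of XBP1 raise chaperone and degradation genes, and PERK raises translation of ATF4, which induces Ddit3 (CHOP) and amino acid synthesis genes. The question put to the arrays was whether microglia that lack B2m, and so cannot complete class I molecules, carried higher transcripts of this response. The arrays read transcript abundance, and Xbp1 splicing, ATF6 cleavage and ATF4 translation were not measured.

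The promoters were searched for exact matches to an element through which ATF6 and XBP1 act. The ER stress response element (ERSE) was searched as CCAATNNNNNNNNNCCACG and its variant ERSE-II as ATTGGNCCACG, on both strands, in the 250 bases before each start of the RefSeq promoter table (GRCm38.p6). ERSE occurred in 37 of 32851 promoters (0.113%), and the promoters of Hspa5, Hsp90b1, Calr and Canx were among them. ERSE-II occurred in 10 (0.0304%), 1 of them that of Herpud1. The elements do not overlap each other in these promoters. The 250 bases before the Hspa5 start, at chr2:34771840-34772089 on the plus strand, are printed with the fixed letters of the element in capitals.
Hspa5 promoter: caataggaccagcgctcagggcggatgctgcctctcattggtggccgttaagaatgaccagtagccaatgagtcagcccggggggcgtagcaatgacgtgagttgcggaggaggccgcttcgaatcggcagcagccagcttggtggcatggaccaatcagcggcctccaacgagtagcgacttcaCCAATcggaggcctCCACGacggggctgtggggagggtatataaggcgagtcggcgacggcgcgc

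The elements of the other members are set out for comparison, each written 5′ to 3′ on the strand that carries the motif, with its fixed letters in capitals and the spacer in lower case. They lie at chr8:84847075-84847093 (plus strand) for Calr, chr11:50325800-50325818 (minus strand) for Canx, chr10:86705533-86705551 (plus strand) and chr10:86705638-86705656 (minus strand) for Hsp90b1, and chr8:94386377-94386387 (plus strand) for Herpud1.
Calr ERSE: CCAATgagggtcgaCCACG
Canx ERSE: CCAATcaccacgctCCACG
Hsp90b1 ERSE nearer the start: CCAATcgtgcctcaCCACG
Hsp90b1 ERSE farther from the start: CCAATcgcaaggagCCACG
Herpud1 ERSE-II: ATTGGgCCACG

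The elements began 65 bases before the start in Hspa5, 107 and 212 in Hsp90b1, 162 in Calr, 145 in Canx and 52 in Herpud1. The ATF4 response element, searched as TGATGNAA, was found in 3.45% of promoters and in 1 member, Herpud1, and the CRE-like element TGACGTG in 1.65% of promoters and in 1 member, Hspa5. Neither ERSE form was found in the windows of Pdia3, Pdia4, Xbp1, Atf4 and Ddit3. A match describes letters in this window and is not a measurement of binding. A missing match does not show that a gene lacks such an element, which may differ in letters or lie outside the window.

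The labels were first checked with the targeted gene and with markers. B2m was 13.41 ± 0.017 on the log2 scale among wildtype samples (SD, n = 3), against 10.41 ± 0.13 among knockouts (SD, n = 4), a drop of 2.99 (SE 0.10, limma adjusted p = 1.54e-07). All 14 microglial markers with a probe set exceeded the 95th percentile of negative control rows (9.35 to 9.55) in at least 1 array, and their array medians ran from -0.077 to 0.079 around each gene's mean. They summed to 70900 to 76600 linear units across wildtype samples, against 72500 to 77200 across knockouts. Endothelial and mural markers, 17 genes, summed to 18400 to 28800 linear units across wildtype samples, against 19600 to 21700 across knockouts, highest in wildtype replicates 1 and 2. Of the 16 tested, 0 lay above 0, with a median difference of -0.25. At an unadjusted p under 0.05, 4 were lower, against 3.54% of all tested genes. Of the 17, 8 lay under the 95th percentile of negative controls on every array. Neutrophil markers, 9 genes, summed to 12800 to 20300 across wildtype samples, against 12500 to 37100 across knockouts, highest in knockout replicate 4. All 9 lay above 0, with a median of 0.58, and 1 was higher at an unadjusted p under 0.05, against 8.39% of all tested genes. Monocyte markers, 7 genes, summed to 2900 to 4950 across wildtype samples, against 3610 to 8310 across knockouts. Their median was 0.35 over 5 tested, 2 of them higher at an unadjusted p under 0.05, led by Plac8 at 1.1 (SE 0.30, limma adjusted p = 0.315). Of the 7, 3 lay under that percentile on every array. B and plasma cell markers, whose cells are rich in ER chaperones, summed to 2260 to 2480 and 1910 to 2500, and 7 of 8 lay under that percentile on every array. Differences in this paragraph are knockout minus wildtype on the log2 scale. The part of other cells in the results below was not tested. In sorted samples a change in cell make-up and a change in RNA per cell cannot be told apart.

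None of the 9 measured members passed the threshold. In limma, with Benjamini-Hochberg adjustment over all tested genes, 0 of 9 members had an adjusted p under 0.05, where 0.05% of all tested genes did, and their adjusted p values ran from 0.472 to 0.963. At an unadjusted p under 0.05 the count was also 0 of 9, against 11.9% of all tested genes. Differences, given as knockout minus wildtype on the log2 scale, were below 0 for 6 members and above 0 for 3, with a median of -0.111, against a median of -0.0055 over all tested genes, of which 48.6% lay above 0. The genotypes did not overlap for 1 of 9 members, Calr, against 10.9% of all tested genes.

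The intervals say what size of change these 7 arrays allow. For all 9 members the upper bound of the 95% confidence interval lay under a 1.5-fold rise, as it did for 90.8% of all tested genes. The largest upper bound was 1.41-fold, for Xbp1. Hspa5, the transcript most used to read the UPR, had an upper bound of 1.08-fold. For 8 of 9 members the whole interval lay within 1.5-fold in either direction, as for 84.1% of all tested genes, and the exception was Ddit3, whose lower bound was 0.616-fold. These intervals come from the fit to all 7 arrays and are not adjusted for the number of genes. Without wildtype replicate 1 the log2 differences of Xbp1 and Pdia3 were 0.33 and 0.28, and intervals for that setting are not given here. Standard errors of the members ran from 0.089 to 0.17, around the median of 0.12 over all tested genes, and every member lay above at least 98.4% of the negative control rows in every array.

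**Figure D1:**
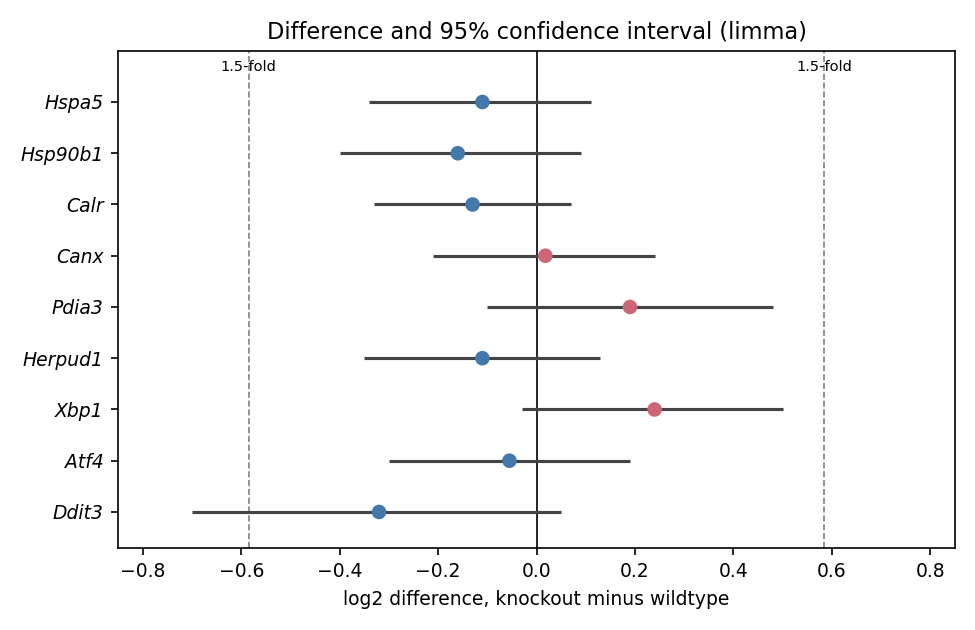
Difference between genotypes for each measured gene (points, log2 scale, knockout minus wildtype; red above 0, blue below 0) with its 95% confidence interval from limma (lines); dashed lines mark 1.5-fold in either direction. All 9 intervals include 0, the upper bounds stay left of the 1.5-fold line, and the lower bound of Ddit3, at -0.70, crosses the line on the left.

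Hspa5 (Entrez Gene 14828) encodes BiP, the Hsp70 of the ER lumen, which holds the stress sensors inactive and is a main target of ATF6. Its log2 values were 12.37, 12.24 and 12.45 in wildtype replicates 1 to 3 and 12.28, 12.13, 12.23 and 12.32 in knockout replicates 1 to 4. The genotypes overlapped, with 2 of 4 knockout arrays below the lowest wildtype array and 0 above the highest. The means of 12.35 ± 0.10 (SD, n = 3) and 12.24 ± 0.080 (SD, n = 4) differed by -0.11 (SE 0.10, 95% confidence interval -0.34 to 0.11, limma adjusted p = 0.685), and by -0.067 without wildtype replicate 3.

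Hsp90b1 (Entrez Gene 22027) encodes GRP94, the Hsp90 of the ER lumen, which folds integrins and Toll-like receptors. It read 12.39, 12.38 and 12.41 with B2m intact, against 12.38, 12.06, 12.14 and 12.39 without it. Knockout replicates 1 and 4 thus stood at the wildtype level, and replicates 2 and 3 below it. The SD was 0.014 over the 3 wildtype arrays, against 0.17 over the 4 knockout arrays, and the difference was -0.16 (SE 0.11, interval -0.40 to 0.09, limma adjusted p = 0.606), or -0.094 without knockout replicate 2.

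Calr (Entrez Gene 12317) encodes calreticulin, the soluble lectin chaperone that keeps class I heavy chains with beta-2-microglobulin in the peptide loading complex. Its values were 12.15, 12.16 and 12.20 with B2m intact, against 12.09, 12.02, 12.03 and 12.01 without it. All 4 knockout arrays lay below all 3 wildtype arrays, by a narrow margin. The means were 12.17 ± 0.025 (SD, n = 3) and 12.04 ± 0.036 (SD, n = 4), a difference of -0.13 (SE 0.089, interval -0.33 to 0.07) that did not pass (limma adjusted p = 0.585). The moderated SE of limma exceeds what these SDs alone would give, since it draws each gene's spread toward that of all genes.

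Canx (Entrez Gene 12330) encodes calnexin, the membrane lectin chaperone that binds class I heavy chains before beta-2-microglobulin joins them. It read 11.78, 11.61 and 11.60 with B2m intact, against 11.78, 11.57, 11.66 and 11.72 without it, with full overlap. Its difference was the nearest to 0 among the members, at 0.018 (SE 0.10, interval -0.21 to 0.24, limma adjusted p = 0.963).

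Pdia3 (Entrez Gene 14827) encodes ERp57, the isomerase that forms disulfides in glycoproteins and is part of the peptide loading complex. Its values were 11.15, 10.70 and 11.05 with B2m intact, against 11.36, 11.11, 11.00 and 11.15 without it. Wildtype replicate 2 was the low array. Of the knockout arrays, 2 of 4 exceeded the highest wildtype array, replicate 4 only beyond the second decimal. The difference of 0.19 (SE 0.13, interval -0.10 to 0.48) did not pass (limma adjusted p = 0.597) and was 0.058 without wildtype replicate 2.

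Pdia3 also lies near the altered locus. On chromosome 2, 10 tested genes lie between Pdia3 and B2m in gene order, whereas 238 lie between B2m and Hspa5 on the same chromosome. Of the 100 tested genes nearest B2m, 50 on each side, 21 had an unadjusted p under 0.05 in limma, against 11.9% of all tested genes, and that difference was not tested. A local effect of the altered allele or of DNA carried with it and an effect of the missing protein cannot be told apart for Pdia3 in this design.

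**Figure D2:**
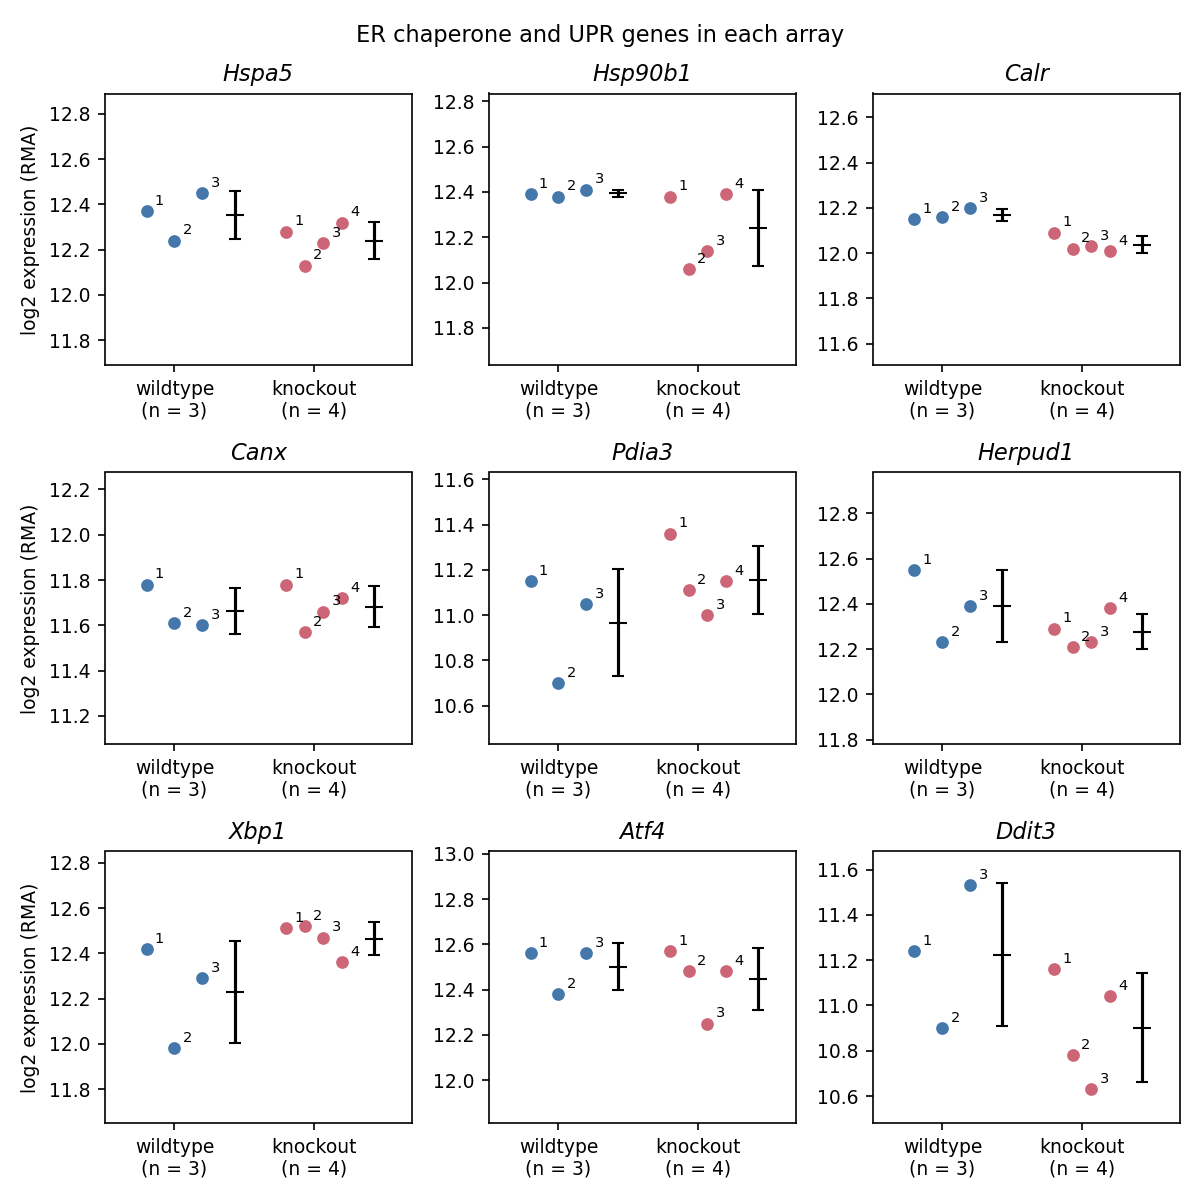
Log2 expression of each measured gene in the 3 wildtype (blue) and 4 knockout (red) arrays, numbered by replicate; bars give the mean ± SD, and each panel spans 1.2 log2 units. The genotypes overlap in every panel except Calr, and wildtype replicate 2 is the lowest array for Pdia3 and Xbp1.

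Herpud1 (Entrez Gene 64209) encodes HERP, a membrane protein of the ER-associated degradation machinery and a sensitive UPR target. It read 12.55, 12.23 and 12.39 with B2m intact, against 12.29, 12.21, 12.23 and 12.38 without it. The genotypes overlapped, and wildtype replicate 1 was the highest array. The difference was -0.11 (SE 0.11, interval -0.35 to 0.13, limma adjusted p = 0.713), and it ran from -0.19 (wildtype replicate 2 left out) to -0.029 (wildtype replicate 1 left out).

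Xbp1 (Entrez Gene 22433) encodes the transcription factor whose transcript IRE1 splices, and it is itself raised by ATF6. Its values were 12.42, 11.98 and 12.29 with B2m intact, against 12.51, 12.52, 12.47 and 12.36 without it. Of the knockout arrays 3 of 4 exceeded the highest wildtype array, and wildtype replicate 2 was the low array. With 12.23 ± 0.22 (SD, n = 3) and 12.46 ± 0.075 (SD, n = 4), it had the largest difference above 0 among the members, 0.24 (SE 0.12, interval -0.03 to 0.50), and the smallest adjusted p (limma, 0.472). Without wildtype replicate 2 the difference was 0.11, and without wildtype replicate 1 it was 0.33. The probe set reads total Xbp1 transcript and does not separate the spliced form.

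Atf4 (Entrez Gene 11911) encodes the main effector of PERK, which is controlled largely at translation. It read 12.56, 12.38 and 12.56 with B2m intact, against 12.57, 12.48, 12.25 and 12.48 without it. These ranges overlapped almost fully, and the difference was -0.055 (SE 0.11, interval -0.30 to 0.19, limma adjusted p = 0.878).

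Ddit3 (Entrez Gene 13198) encodes CHOP, a transcription factor that ATF4 induces under lasting stress and that promotes cell death. Its values were 11.24, 10.90 and 11.53 with B2m intact, against 11.16, 10.78, 10.63 and 11.04 without it. It had the widest spread of the members, with SDs of 0.32 (n = 3) and 0.24 (n = 4), and the largest difference in either direction, -0.32 (SE 0.17, interval -0.70 to 0.05, limma adjusted p = 0.492). The difference was -0.17 without wildtype replicate 3, smaller in size than those of Xbp1 (0.27) and Pdia3 (0.23) in that setting, and -0.48 without wildtype replicate 2. A second Ddit3 probe set, dimmer on average and not kept, read 10.03, 9.95 and 10.30 with B2m intact, against 10.09, 9.69, 9.76 and 9.87 without it, a difference of -0.24. Both sets placed wildtype replicate 3 highest, and the kept set bears an identifier for unmapped sequence while the other is assigned to chromosome 10.

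Across arrays, the members did not follow genotype alone. Knockout replicate 2 held the lowest value of 4 members and knockout replicate 3 of 2, while wildtype replicate 3 held the highest value of 4. Wildtype replicate 2 held the lowest value of 2 members, Pdia3 and Xbp1. The median deviation of the 9 members from their means was 0.084, -0.093 and 0.093 in wildtype replicates 1 to 3 and 0.10, -0.108, -0.075 and 0.027 in knockout replicates 1 to 4. Knockout replicate 1 thus had the highest median of all 7 arrays and knockout replicate 2 the lowest, so the knockout arrays alone spanned the whole range.

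**Figure D3:**
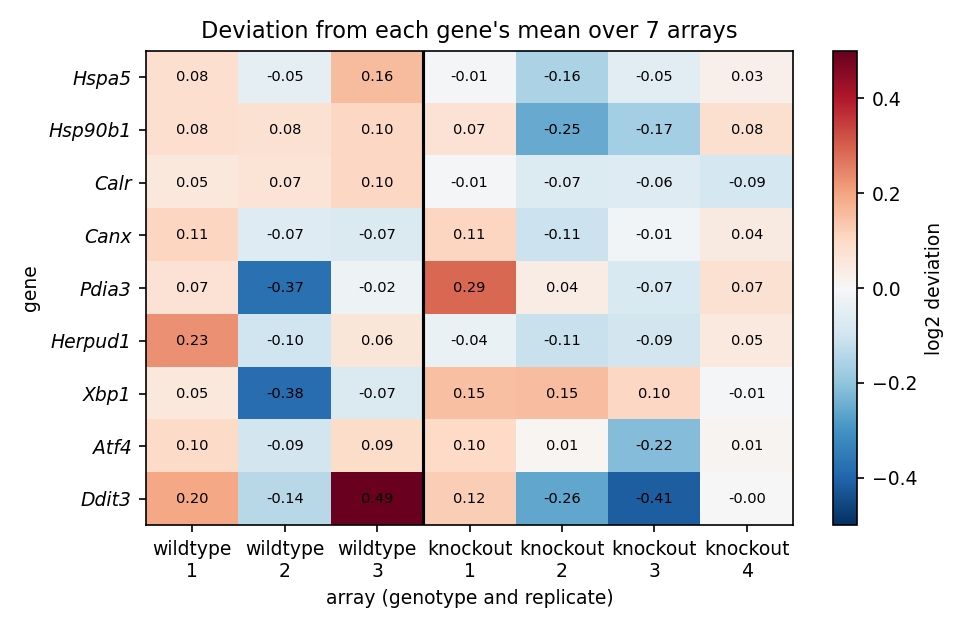
Log2 deviation of each measured gene from its own mean over the 7 arrays, in rows by gene and columns by array (red above the mean, blue below); the black line separates genotypes. Hsp90b1 and Ddit3 are lowest in knockout replicates 2 and 3, and Pdia3 and Xbp1 are lowest in wildtype replicate 2 at -0.37 and -0.38.

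The wider pathway was described with 8 lists of ER and UPR genes, which hold 154 tested genes including the 9 members. In limma 0 of the 154 passed, with a lowest adjusted p of 0.293. At an unadjusted p under 0.05, 17 genes (11.0%) were higher in knockout arrays and 5 (3.25%) were lower, against 8.39% higher and 3.54% lower over all tested genes. The median difference over the lists was 0.046, and 95 of 154 genes lay above 0, against 48.6% of all tested genes. The upper bound of the interval was under a 1.5-fold rise for 139 of 154, as for 90.8% of all tested genes. The genotypes did not overlap for 17 of 154, against 10.9% of all tested genes. Scaling to housekeeping genes, which moved the median of all tested genes from -0.0055 to -0.12, took the medians of 3 lists from above to below 0. They were luminal chaperones (-0.057), disulfide isomerases (-0.053) and cell death genes (-0.096).

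Targets of PERK and ATF4 had the lowest median of the 8 lists. Of 24 tested targets of PERK and ATF4, 17 lay below 0, with a median of -0.081. At an unadjusted p under 0.05 there were 3, all lower, against 3.54% lower over all tested genes. Those were Asns, asparagine synthetase, at -0.41 (SE 0.11), the stress-induced mTORC1 regulator Sesn2 at -0.34 (SE 0.12) and the amino acid transporter Slc7a5 at -0.42 (SE 0.15), with adjusted p values from 0.315 to 0.348 in limma. All 4 knockout arrays lay below all 3 wildtype arrays for Asns and Sesn2. For Slc7a5 the genotypes overlapped. It read 10.80, 10.63 and 10.14 in wildtype replicates 1 to 3, against 10.02 to 10.21 in knockouts, so wildtype replicate 3 lay within the knockout range. Every value of Asns was under the 95th percentile of the negative controls in its array, so its size is a rough guide. The median of the list was -0.13 without wildtype replicate 2 and -0.20 with housekeeping scaling.

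Genes of the ER translocon and of ER trafficking, many of them XBP1 targets in secretory cells, had the highest median. Of 29 tested, 25 lay above 0 with a median of 0.13. At an unadjusted p under 0.05 there were 5, all higher, against 8.39% higher over all tested genes. The signal recognition particle subunit Srp9 differed by 0.44 (SE 0.13), the translocon subunit Sec61g by 0.38 (SE 0.15) and the translocon-associated protein Ssr4 by 0.49 (SE 0.19). None of these passed (limma adjusted p from 0.315 to 0.381). Wildtype replicate 1 was the lowest array for Srp9, Sec61g and Ssr4, and the genotypes overlapped for Sec61g and Ssr4. The array medians of this list lay between -0.084 and -0.054 for wildtype samples, below the 0.027 to 0.114 of the knockouts. The mean of the 6 housekeeping genes, around its own mean over the arrays, split the same way. It lay at -0.069 to -0.064 for wildtype samples and 0.022 to 0.076 for knockouts. Array medians also did not overlap for disulfide isomerases (-0.082 to 0.013 against 0.016 to 0.108), and overlapped for the other ER and UPR lists. The median of the translocon list was 0.019 with housekeeping scaling and 0.13 without wildtype replicate 1.

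Degradation genes had a median of 0.12 over 23 tested. At an unadjusted p under 0.05 there were 4, all higher, against 8.39% higher over all tested genes. Erlec1, a lectin that delivers misfolded glycoproteins to the degradation complex, differed by 0.46 (SE 0.11, limma adjusted p = 0.308) without overlap of the genotypes. The selenoproteins Selenos and Selenok, both partners of the degradation complex, differed by 0.33 (SE 0.12) and 0.27 (SE 0.11). The median of the list was 0.039 without knockout replicate 4 and 0.0033 with housekeeping scaling.

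Luminal chaperones and cochaperones, Hspa5 and Hsp90b1 included, held the gene with the lowest adjusted p of the 8 lists. Of 19 tested, 13 lay above 0 with a median of 0.059. At an unadjusted p under 0.05 there were 5, all higher, against 8.39% higher over all tested genes. The prolyl isomerases Fkbp7 and Fkbp2 differed by 0.60 (SE 0.14) and 0.48 (SE 0.15), and Sdf2l1, a UPR-induced partner of BiP, by 0.32 (SE 0.12). Their adjusted p values lay between 0.293 and 0.379 in limma, and the genotypes did not overlap for Fkbp7 and Sdf2l1. The wildtype values of Fkbp7 lay under the lowest 95th percentile of the negative controls, so its size too is a rough guide. The median of the list was 0.14 with a stricter filter on dim genes, 0.099 without wildtype replicate 3 and -0.0075 without wildtype replicates 1 and 2.

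Disulfide isomerases and the calnexin cycle are the pathways of Pdia3, Canx and Calr. Among 18 tested isomerases and oxidases 0 had an unadjusted p under 0.05, and the median was 0.063, with the ER peroxidase Prdx4 at 0.26 (SE 0.13, limma adjusted p = 0.475). Among 20 genes of the calnexin cycle and of N-glycan addition and trimming, 3 had an unadjusted p under 0.05, against 11.9% of all tested genes, 2 of them higher, around a median of -0.0055. The oligosaccharyltransferase subunits Ostc and Rpn1 differed by 0.43 (SE 0.12) and 0.32 (SE 0.10), and Uggt1, the glucosyltransferase that returns unfolded glycoproteins to calnexin, by -0.31 (SE 0.13). These had limma adjusted p values from 0.315 to 0.399.

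Among 11 tested genes of sensing and processing, 2 had an unadjusted p under 0.05, against 11.9% of all tested genes. They were Traf2 (higher) and Ern1 (lower). Ern1, which encodes IRE1, differed by -0.28 (SE 0.13), Atf6 by -0.23 (SE 0.11) and Traf2, the adaptor that IRE1 recruits, by 0.29 (SE 0.10), with limma adjusted p from 0.348 to 0.470. All values of Traf2 were under the 95th percentile of the negative controls. Cell death genes linked to ER stress had 0 of 11 at that threshold and a median of 0.02.

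**Figure D4:**
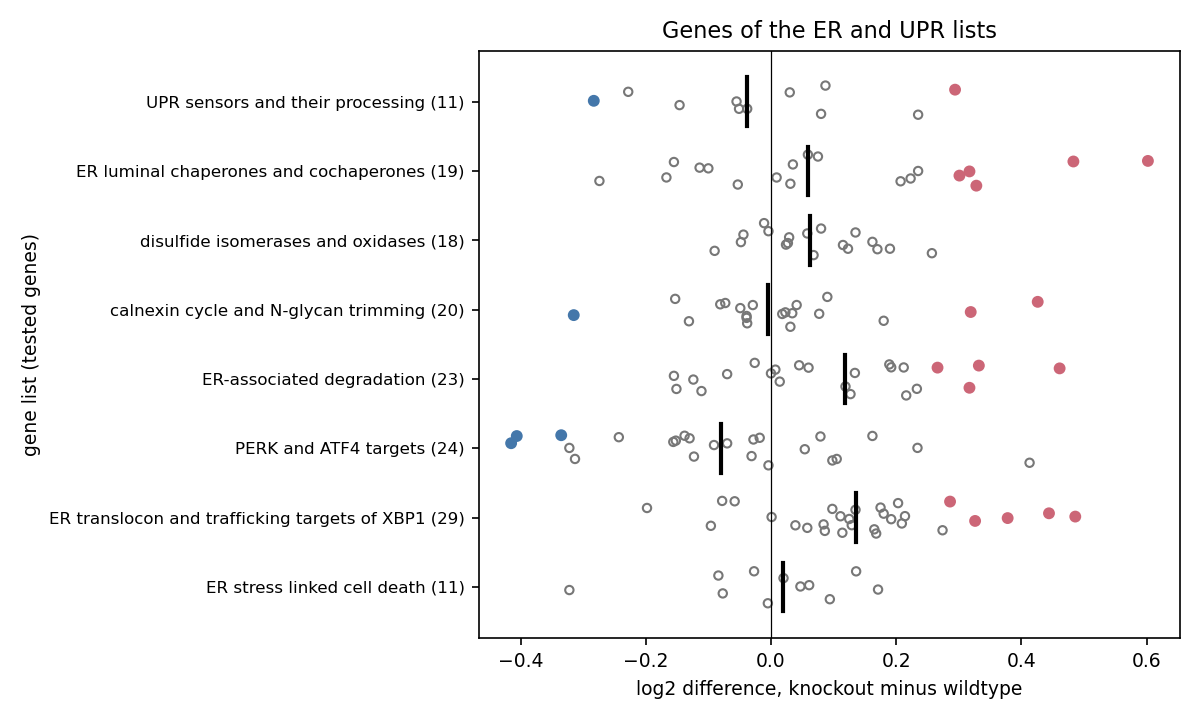
Log2 difference (knockout minus wildtype) of every tested gene in 8 ER and UPR lists, with the number tested in parentheses; filled points have an unadjusted p under 0.05 (red higher, blue lower) and black bars mark list medians. The translocon list has the highest median (0.13) and the PERK and ATF4 targets the lowest (-0.081).

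A further list was defined by sequence alone. Of 45 genes with ERSE or ERSE-II in the promoter window, 18 were tested, 5 of them members. In limma 0 of the 18 passed, against 0.05% of all tested genes. Of the 18, 7 lay above 0, against 48.6% of all tested genes, and the differences ran from -0.29 to 0.35 with a median of -0.038. The only gene of the 18 with an unadjusted p under 0.05 was Nucb1, a calcium-binding Golgi protein, at -0.29 (SE 0.10, limma adjusted p = 0.348). Over all tested genes, 3.54% were lower at that threshold.

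The clients of the missing light chain were also read. The heavy chain genes H2-K1, H2-D1 and H2-T23 differed by 0.050 (SE 0.12), 0.092 (SE 0.15) and 0.15 (SE 0.13), with limma adjusted p from 0.697 to 0.904. H2-K1 stood at 12.82 ± 0.17 with B2m intact (SD, n = 3), against 12.87 ± 0.16 without it (SD, n = 4). Transcripts of these 3 heavy chains were thus present in both genotypes at levels that differed by less than their spread. Hfe, listed with the class I heavy chains, stood at 10.04 ± 0.077 (SD, n = 3) with B2m intact, against 10.20 ± 0.040 (SD, n = 4) without it. Its difference of 0.16 (SE 0.093) exceeded both SDs but did not pass (limma adjusted p = 0.516). The genotypes did not overlap for Hfe, as for 10.9% of all tested genes. Class I heavy chain genes resemble one another in sequence, so their probe sets may share signal.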

How the data were processed

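RNA of 7 microglial samples, 3 wildtype and 4 knockout by the genotype in the labels, was read on 1 array each. Each deposited value is the log2 signal of a probe set, which the authors computed by RMA (the submitters' processing notes name Affymetrix Expression Console 1.1). The array's genome build was not given in the sources used here. No further normalization was applied to the 28846 rows, whose array medians ran from 7.68 to 7.75. Probe sets were named through the platform annotation, matched by Entrez identifier to GRCm38.p6, which was used for names and gene order. Genes above the array's 50th percentile of named genes in at least 3 arrays were tested, knockout against wildtype, with limma 3.58.1 (lmFit, eBayes; R 4.3.3), which was tested on simulated data. Promoter sequences are from RefSeq (GRCm38.p6), and all 10 genes matched by symbol. For arrays, their number limits the precision.

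The members and gene lists were chosen with earlier results of these data known. Named from each list were up to 4 genes with the smallest unadjusted p, besides the members, B2m, 3 heavy chain genes, leading markers and the 5 genes nearest Hspa5 in profile. Nucb1 was named after its value was seen. Replicates were numbered as deposited, and the numbers do not pair them. Alternatives were other filters, priors, weights and scalings, the mean of probe sets, and each array left out in turn.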

Additional observations from a re-analysis of the deposited data

Results flagged for a closer look

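Among 82 named genes, members included, 1 had a knockout array far from the other 3, and it was no member. The microglial growth factor receptor Csf1r read 13.36 in knockout replicate 4, against 13.28 to 13.29 in knockout replicates 1 to 3, and chance alone marks about 1 in 20 groups by this measure.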

How the results depend on the processing

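No member passed the threshold under any of 16 alternatives, with a lowest adjusted p of 0.246 in limma. Of 144 values of single members under these alternatives, 138 kept their direction and 6 changed sign, all of them of Canx or Atf4. Canx was -0.032 after repeated quantile normalization, -0.098 with housekeeping scaling, -0.010 and -0.014 without wildtype replicates 2 and 3, and -0.016 without knockout replicate 1, and its values with 1 array left out ran from -0.016 to 0.078 (without wildtype replicate 1). Atf4 was 0.0094 without knockout replicate 3. The count of members at an unadjusted p under 0.05 was 1 of 9 with an intensity trend and robust prior, against 12.3% of all genes. It was also 1 of 9 with array weights, against 15.1% of all genes, and both times the member was Xbp1. The count ran from 0 to 1 over the settings that left out 1 array. The member was Xbp1 without wildtype replicate 1, against 7.02% of all genes. It was Ddit3 without wildtype replicate 2 (8.06% of all genes) or knockout replicate 1 (9.84%). With both wildtype replicates 1 and 2 left out, the median difference over the members was -0.116 and that of Ddit3 was -0.63. That setting was chosen after seeing the data and leaves 1 wildtype array, assumed to vary like the others. Scaling to 6 housekeeping genes moved the median of all genes to -0.12 and that of the members to -0.228, so that the members' median minus that of all genes was -0.106, as before. With it 4 of 9 members had an unadjusted p under 0.05, against 18.0% of all genes, both counted in either direction. Those members, Calr, Ddit3, Hsp90b1 and Hspa5, were all lower. The median over the members was -0.029 without wildtype replicate 1 and ran to -0.133 without wildtype replicate 2. The number of genes called ran from 2 to 22 when 1 array was left out, 22 without wildtype replicate 3 and 2 without wildtype replicate 1 or 2, against 5 with all arrays. No paired analysis was possible because the labels give no pairing of wildtype with knockout samples.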

Other observations

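The 5 tested genes whose profile over the 7 arrays lay nearest that of Hspa5 were Gng4, Dusp27, Icosl, Zfand5 and Otud5. Their root mean square distances were 0.0319 to 0.0418 log2 units, against a median of 0.182 over all tested genes. Among the members, Herpud1 (0.0733), Calr (0.0744) and Hsp90b1 (0.084) were nearer to Hspa5 than Atf4 (0.102) and Canx (0.103), and Pdia3 (0.196), Ddit3 (0.204) and Xbp1 (0.213) were farther than the median gene. The distance depends on how much a gene varies, and 114 genes, Hspa5 itself included, lay nearer than Herpud1.

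Immediate early genes, which rise when tissue is dissociated, were also read as a sign of handling. Of 18 tested, 13 lay above 0 with a median of 0.072, and 3 had an unadjusted p under 0.05, all higher, against 8.39% higher over all tested genes: Ier2 at 0.37 (SE 0.097), Ier3 at 0.28 (SE 0.095) and Klf2 at 0.44 (SE 0.17). None passed in limma, with adjusted p from 0.315 to 0.383. The list's array medians lay between -0.084 and -0.028 for wildtype samples, below the 0.003 to 0.069 of the knockouts. The mean of the housekeeping genes was likewise lower in every wildtype sample than in every knockout. The median of the immediate early list was -0.045 with housekeeping scaling and 0.030 without wildtype replicate 3. The cytosolic heat shock genes had a median of -0.18 over 13 tested, with the highest array median in wildtype replicate 1 (0.293) and the lowest in knockout replicate 3 (-0.262), and 0 passed. At an unadjusted p under 0.05, 2 were lower, against 3.54% of all tested genes: Hspa1a at -0.41 (SE 0.14), without overlap of the genotypes, and Hspb1 at -0.39 (SE 0.15), with limma adjusted p of 0.343 and 0.38. The median of the list was -0.068 without knockout replicate 3, -0.076 without wildtype replicate 1 and -0.30 with housekeeping scaling. The part of handling in the ER results was not tested.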
